A study of Mus musculus with 34 samples.

Results

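Cohesin occupancy after LPS was compared between bone marrow-derived dendritic cells (BMDCs) with and without CTCF, using the peak lists of its subunit SMC1. The CTCF-WT list (WTLPS) held 57354 peaks and the CTCF-KO list (KOLPS) held 17241, which together are 74595 of the 1393623 peaks in the 30 lists of the series. Each list was split by whether a peak shared at least 1 bp with a peak of the other list. WTLPS peaks with a partner were called kept and those without lost, and KOLPS peaks without a partner were called KOLPS only. Both conditions came from C57BL/6 mice aged 8 weeks whose bone marrow was cultured with GM-CSF for 6 days, given 4-OH tamoxifen on the first day and stimulated with LPS, the TLR4 ligand, at 100 ng/ml for 3 h. WTLPS cells carried CreER, the tamoxifen-inducible recombinase, and KOLPS cells carried CreER;CTCF fl/fl, so that tamoxifen and Cre were shared by both and the floxed Ctcf alleles were not. Deletion was thus induced at the start of culture, before differentiation, and CreER stood at the Rosa26 locus, which is not particular to dendritic cells. Unstimulated cells of the same genotypes (WT and KO) served for reference.

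Cohesin is a ring-shaped complex built on the SMC1 and SMC3 proteins. It is loaded onto chromatin at active regions, extrudes DNA into loops, and is halted by CTCF bound to its motif, so that in most cell types cohesin peaks lie at CTCF sites, while a further set lies at enhancers and promoters. In dendritic cells LPS acts through TLR4 to move NF-κB into the nucleus. Its subunit p65 (RelA) binds enhancers and promoters of inflammatory genes, many of which carry H3K27ac, the acetylation of active regulatory elements, and which PU.1, AP-1 and C/EBP factors also bind. Fewer peaks in a list can follow from weaker binding in every cell or from binding in fewer cells, and these cannot be told apart here.

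The sequences below are those of the strongest peaks, by the −log10 p of their own list, that held the motif named in each class. They were chosen for holding a motif and are examples of each class: CTCF sites lost and kept, kept p65 sites without CTCF, and KOLPS-only promoters. How often each motif occurred in a class is given further on. Each is 151 bases around the peak summit, in GRCm38 (mm10), on the plus strand, with the motif match in capitals. Windows over annotated exons were passed over.

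The 3 lost peaks overlapped a WTLPS CTCF peak, and the capitals mark the core of the CTCF motif, on either strand. They lay in an intron on chromosome 12 at fold 40.7, within 2.5 kb of the start of the pseudogene Gm17799 on chromosome 16 at fold 36.7, and in an intron upstream of Specc1l on chromosome 10 at fold 31.1. Fold is the fragment pileup over the local background of the library.
Lost, chr12:111878322-111878472: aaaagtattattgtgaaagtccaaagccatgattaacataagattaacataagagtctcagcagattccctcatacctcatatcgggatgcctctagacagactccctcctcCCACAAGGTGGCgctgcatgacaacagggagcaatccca
Lost, chr16:19724278-19724428: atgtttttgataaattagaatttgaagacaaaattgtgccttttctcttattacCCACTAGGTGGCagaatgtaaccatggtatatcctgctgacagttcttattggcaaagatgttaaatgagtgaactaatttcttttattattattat
Lost, chr10:75151449-75151599: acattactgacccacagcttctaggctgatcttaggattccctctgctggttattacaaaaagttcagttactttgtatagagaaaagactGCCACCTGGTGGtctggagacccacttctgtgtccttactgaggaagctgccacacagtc

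Kept peaks at CTCF sites held the same core. The strongest shown, outside genes on chromosomes 6 and 13, had folds of 43.6 and 42.3, both above those of the lost peaks shown.
Kept with CTCF, chr6:145088604-145088754: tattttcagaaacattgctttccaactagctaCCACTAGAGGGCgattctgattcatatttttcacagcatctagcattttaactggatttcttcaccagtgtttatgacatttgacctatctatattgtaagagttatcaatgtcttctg
Kept with CTCF, chr13:3665311-3665461: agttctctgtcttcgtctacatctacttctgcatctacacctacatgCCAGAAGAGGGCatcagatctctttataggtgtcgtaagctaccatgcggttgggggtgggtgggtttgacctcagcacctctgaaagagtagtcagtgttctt

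Kept peaks with p65 and H3K27ac but no CTCF in WTLPS are shown with the NF-κB motif in capitals. Their folds were 19.8, 17.3 and 16.3.
Kept with p65, chr19:9938935-9939085: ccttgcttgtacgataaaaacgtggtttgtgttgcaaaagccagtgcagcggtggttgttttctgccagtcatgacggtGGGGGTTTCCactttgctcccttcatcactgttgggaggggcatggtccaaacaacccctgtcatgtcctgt
Kept with p65, chr19:29176583-29176733: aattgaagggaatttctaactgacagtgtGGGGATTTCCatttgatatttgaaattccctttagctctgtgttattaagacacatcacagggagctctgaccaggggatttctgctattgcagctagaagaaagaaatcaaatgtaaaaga
Kept with p65, chr13:44538371-44538521: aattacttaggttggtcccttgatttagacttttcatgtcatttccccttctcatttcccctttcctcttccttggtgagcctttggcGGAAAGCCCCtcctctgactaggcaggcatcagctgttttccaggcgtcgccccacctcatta

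KOLPS-only peaks at promoters are shown with CCGGAAGT (ETS), the NRF1 motif or GGGGCGGGG (Sp1) in capitals, in that order. They lay upstream of Cog8, a Golgi complex subunit, of Maz, a zinc finger factor, and of Mepce, a capping enzyme of 7SK RNA, with folds of 6.92, 6.19 and 5.64.
KOLPS only, chr8:107056702-107056852: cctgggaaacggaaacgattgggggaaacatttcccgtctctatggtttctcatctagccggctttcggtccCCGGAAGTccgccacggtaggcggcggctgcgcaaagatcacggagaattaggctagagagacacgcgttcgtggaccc
KOLPS only, chr7:127027350-127027500: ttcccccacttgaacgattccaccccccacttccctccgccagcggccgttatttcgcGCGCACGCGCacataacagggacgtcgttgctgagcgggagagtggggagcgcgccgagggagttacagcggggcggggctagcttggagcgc
KOLPS only, chr5:137786786-137786936: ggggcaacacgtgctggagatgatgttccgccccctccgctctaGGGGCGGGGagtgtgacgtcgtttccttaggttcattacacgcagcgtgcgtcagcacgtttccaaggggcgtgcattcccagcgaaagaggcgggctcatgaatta

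Most SMC1 peaks of WTLPS had no counterpart in KOLPS. Of 57354 peaks, 44009 were lost, which is 76.7% (95% interval 76.4 to 77.1), and 13345 were kept. Of the 17241 KOLPS peaks, 13973 met a WTLPS peak and 3268 were KOLPS only, which is 18.95% (18.4 to 19.5). Each condition has 1 list, without a replicate, so no difference could be tested against replicate spread and the intervals cover counting error only. The KOLPS library was shallower, at 4.49 against 5.76 fragments over a background base, a ratio of 0.780. At that coverage an expected 48816 of the WTLPS peaks (85.1%) would still have been called. The share lost, weighted in this way, was 74.3%. Of the kept peaks, 24 (0.180%) shared 50 bp or less with their partner, and 7952 (59.6%) had a KOLPS peak that covered at least 50% of them. On the other side, 712 lost peaks (1.62%) had a KOLPS peak within 500 bp. Dendritic cell markers were present in both conditions, with H3K4me3 at the promoters of 10 of 10 dendritic cell markers in WTLPS and in KOLPS. Of 5 T cell markers 1 had such a peak in each, of 6 neutrophil markers 1 in each and of 3 mast cell markers 0 in each. Of 3 fibroblast markers 2 had it in each condition and 0 had H3K27ac, and the part of such cells in the results was not tested. Of 6 monocyte or macrophage markers 6 had H3K4me3 in WTLPS and 4 in KOLPS, where Marco and Ly6c2 had none.

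Kept peaks were wider and stronger than lost ones in their own list. The median width was 709 bp for kept and 450 bp for lost WTLPS peaks, and the median fold was 6.50 against 4.73. The middle of the lost peaks spanned folds of 3.84 to 7.24 and that of the kept peaks 4.73 to 9.61 (quartiles), so that the ranges overlapped widely. On the KOLPS side the order was the same, with 379 bp and fold 4.72 for peaks that met a WTLPS peak and 259 bp and fold 4.00 for KOLPS-only peaks. Where both conditions had a peak, the summits lay a median of 55.0 bp apart, and 12.3% (11.8 to 12.9) lay over 200 bp apart. This share was 30.3% (28.1 to 32.5) of 1698 kept peaks with both CTCF and H3K27ac, against 10.1% (8.76 to 11.7) of 1629 with CTCF alone of the pair and 11.0% (10.3 to 11.7) of 7606 with H3K27ac alone. At sites that carried both, the position of strongest SMC1 signal thus differed between conditions more often. Peak width and the number of KOLPS partners were not held equal between these sets.

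Lost and kept peaks carried different partners. CTCF peaks of WTLPS overlapped 62.6% (62.2 to 63.1) of lost and 24.9% (24.2 to 25.7) of kept peaks, a difference of 37.7 percentage points (36.8 to 38.6). H3K27ac went the other way, at 24.4% (24.0 to 24.8) of lost and 69.7% (68.9 to 70.5) of kept peaks, and so did p65, at 2.73% (2.58 to 2.89) of lost and 25.9% (25.2 to 26.7) of kept peaks. H3K4me1, the methylation found at enhancers, lay at 50.1% of lost and 85.4% of kept peaks, and H3K4me3, that of promoters, at 12.3% and 28.6%. H3K27me3, the Polycomb mark, was rare at either, at 3.20% and 1.79%. STAT5, the factor downstream of GM-CSF, had been profiled in WT cells given GM-CSF again for 15 min, and its peaks overlapped 3.38% of lost and 23.5% of kept sites.

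**Figure D1:**
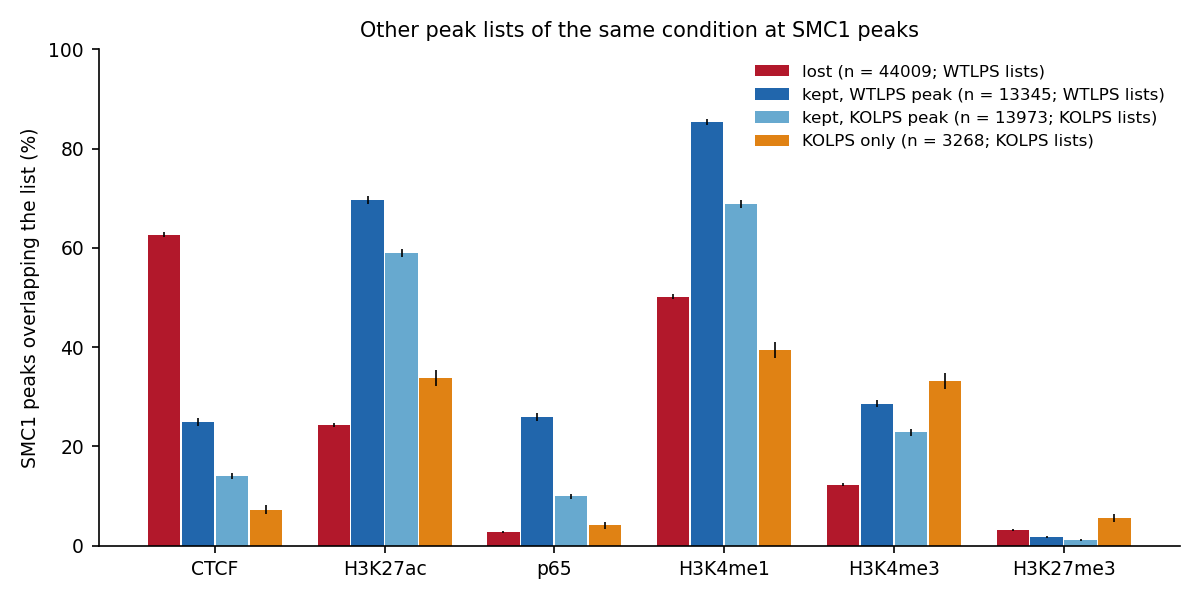
Share of SMC1 peaks (%) that overlap a peak of each other list of the same condition (WTLPS lists for lost and kept WTLPS peaks, KOLPS lists for kept KOLPS and KOLPS-only peaks). Error bars are 95% Wilson intervals. CTCF is highest at lost peaks (62.6%), H3K27ac, p65 and H3K4me1 at kept WTLPS peaks, and H3K4me3 at KOLPS-only peaks (33.2%).

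Of WTLPS SMC1 peaks at CTCF sites, 10.8% (10.4 to 11.1) of 30898 were kept, against 37.9% (37.3 to 38.5) of 26456 elsewhere. CTCF sites were not alike in this. A CTCF peak was still called in KOLPS at 8914 of them, and there 22.2% (21.4 to 23.1) kept SMC1, while at the other 21984 the share was 6.13% (5.82 to 6.45). Even so, 6934 SMC1 peaks were lost where a CTCF peak was called in both conditions, which is 77.8% (76.9 to 78.6) of such sites. A peak call in KOLPS does not show that CTCF was bound as strongly there, and its strength was not compared. The study reports that CTCF binding was absent or much reduced at every site in CTCF-deficient cells. Of the 5 strongest lost peaks 4 were of this kind, with folds from 36.2 to 40.7, and none of the 5 carried H3K27ac or p65.

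Over peaks of all strengths, the kept share also differed by H3K27ac and p65. Among peaks with CTCF alone of these, 6.12% (5.83 to 6.42) of 26099 were kept. Among those with none of the 3 it was 19.9% (19.2 to 20.7) of 10569. With H3K27ac alone the kept share was 41.4% (40.5 to 42.3) of 11749, and with H3K27ac and p65 it was 76.7% (75.3 to 78.1) of 3572. Adding CTCF to H3K27ac went with a lower share, 30.9% (29.5 to 32.3) of 4279, but adding CTCF to H3K27ac and p65 did not, at 81.6% (77.8 to 84.8) of 461. The 2 groups with p65 but no H3K27ac, with CTCF (54.2% of 59) and without (54.4% of 566), did not differ beyond their intervals of 41.7 to 66.3 and 50.3 to 58.5. Over all p65 sites, 74.2% (72.9 to 75.5) of 4658 SMC1 peaks were kept. This share was 83.5% (82.3 to 84.6) of the 3835 whose SMC1 peak was also called in unstimulated WT cells but 255 of the 823 whose SMC1 peak was not were kept (interval 27.9% to 34.2%). These shares are over peaks of all strengths.

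**Figure D2:**
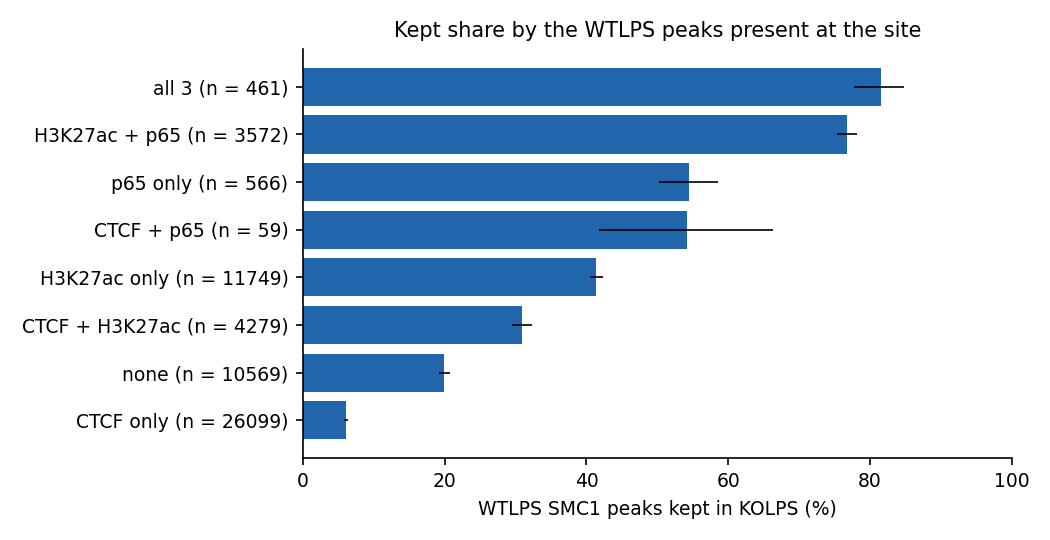
Share of WTLPS SMC1 peaks kept in KOLPS (%) for each combination of WTLPS CTCF, H3K27ac and p65 peaks at the site, with 95% Wilson intervals. It runs from 6.12% with CTCF alone to 81.6% with all 3.

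The other marks at these sites also differed between conditions. At the 3457 kept SMC1 peaks with p65 in WTLPS, p65 was called in KOLPS at 32.5% (30.9 to 34.0), so that at 2335 sites SMC1 was called in both conditions and p65 in WTLPS alone. At the 1201 lost SMC1 peaks with p65, p65 was called in KOLPS at 7.16% (5.84 to 8.76). Put the other way, where p65 was called in both conditions 92.9% (91.3 to 94.2) of 1208 SMC1 peaks were kept, and where it was called in WTLPS alone 67.7% (66.1 to 69.2) of 3450. The p65 lists did not end at the same p-value, at a lowest −log10 p of 4.35 in WTLPS and 5.39 in KOLPS. With the WTLPS p65 list cut at the latter, an alternative chosen after seeing the data, the shares were 32.7% and 7.30%. H3K27ac was called in KOLPS at 83.6% (82.9 to 84.4) of the 9304 kept and at 57.1% (56.1 to 58.0) of the 10757 lost SMC1 peaks that had it in WTLPS, so 6140 sites had H3K27ac in both conditions and SMC1 in WTLPS alone. The KOLPS H3K27ac library was shallower than that of WTLPS, which had 1.20 fragments over a background base; the part of depth in this was not tested. H3K4me3 differed little, being called in KOLPS at 78.6% of kept and 76.9% of lost sites that had it.

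The kept share depended on peak strength in a way that differed by partner. WTLPS peaks were ranked by −log10 p and divided into 5 groups of equal size, from 1 (weakest) to 5. With H3K27ac and no CTCF the kept share was 17.4% (16.2 to 18.7) in group 1, 52.5% (50.9 to 54.1) in group 3 and 98.2% (97.4 to 98.8) in group 5. With neither mark it was 7.65%, 36.2% and 95.1%. With CTCF and no H3K27ac it was 1.40% (1.04 to 1.89) in group 1, 1.95% (1.60 to 2.37) in group 3 and 15.1% (14.3 to 15.9) in group 5. In group 5, 1194 of 7904 peaks with CTCF and no H3K27ac were kept, and 1412 of 1438 with H3K27ac and no CTCF. Peaks with CTCF and H3K27ac lay between, at 6.23% in group 1 and 52.4% in group 5. At p65 sites the share was 15.6% (11.4 to 21.1), 29.9%, 52.5% (49.2 to 55.8), 82.5% and 96.8% (95.8 to 97.6) in groups 1 to 5, beside 17.4%, 28.8%, 52.5%, 82.9% and 98.2% with H3K27ac and no CTCF. Within a strength group p65 sites were thus kept at shares close to those of H3K27ac sites without CTCF. Of the 15321 peaks of that set 3572 carried p65, so the comparison does not separate p65 from H3K27ac. H3K27ac sites without p65 were not divided by strength. Peaks without p65, which include those with CTCF alone, were kept at 8.74%, 14.6%, 23.3%, 25.7% and 23.2% in groups 1 to 5. Where CTCF was called in both conditions the kept share stayed between 6.06% and 9.74% in groups 1 to 4 and was 30.3% (29.1 to 31.5) in group 5.

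**Figure D3:**
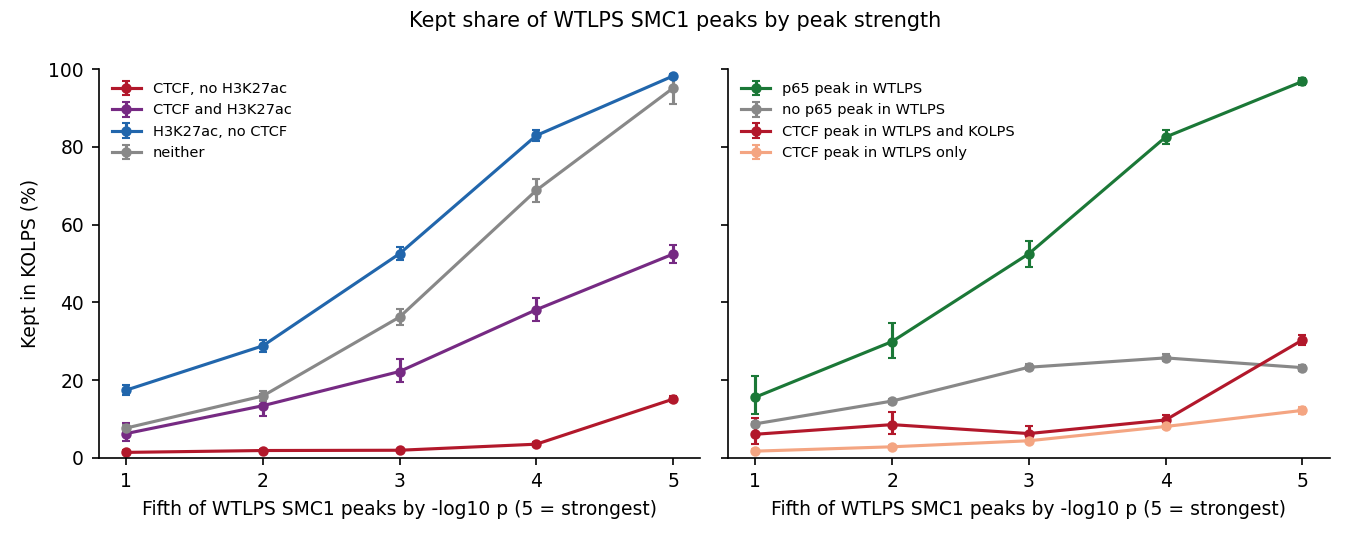
Share of WTLPS SMC1 peaks kept in KOLPS (%) in 5 groups of equal size by −log10 p, with 95% Wilson intervals. Left, by WTLPS CTCF and H3K27ac. Right, by WTLPS p65 and by whether CTCF was called in both conditions. Group 5 with H3K27ac and no CTCF reaches 98.2%, against 15.1% with CTCF and no H3K27ac.

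Peaks that were absent from unstimulated WT cells made up 10395 of the WTLPS peaks (18.1%). They overlapped CTCF at 23.1% (22.3 to 23.9), against 60.7% (60.2 to 61.1) of the 46959 peaks also called in WT, whereas p65 lay at like shares of the 2 sets, 7.92% (7.41 to 8.45) and 8.17% (7.92 to 8.42). Over all WTLPS peaks, those with p65 were mostly strong, with 211 in strength group 1 and 1554 in group 5. The 2 sets differed in strength, and their p65 shares were not compared at equal strength. Of the peaks not in WT 9.77% (9.22 to 10.4) were kept in KOLPS, against 26.3% (25.9 to 26.7) of the others. The former were mostly weak, with 5774 in strength group 1 and 14 in group 5. Within group 1 the kept shares were 5.32% (4.77 to 5.93) and 12.5% (11.6 to 13.3), within group 2 they were 9.98% of 3278 and 17.1% of 8193, within group 3 they were 23.6% (21.2 to 26.1) and 25.7% (24.8 to 26.5), and within group 4 51.4% (44.7 to 58.1) of 208 and 33.5% (32.6 to 34.3) of 11263. The share was thus lower for peaks not in WT in groups 1 and 2, which held most of them, the intervals overlapped in group 3, and the order was the other way in group 4. Unstimulated KO cells already separated the classes: their SMC1 list overlapped 87.2% (86.6 to 87.8) of kept and 18.6% (18.2 to 18.9) of lost WTLPS peaks. In KOLPS, 3645 peaks (21.1%) were absent from KO, and 51.9% (50.3 to 53.5) of these met a WTLPS peak.

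Lost peaks lay farthest from start sites by their median, and KOLPS-only peaks nearest. The median distance from summit to nearest start was 11.9 kb for lost, 10.1 kb for kept WTLPS, 9.86 kb for kept KOLPS and 6.21 kb for KOLPS-only peaks. Within 250 bp of a start lay 2.84% (2.69 to 3.00), 6.17% (5.77 to 6.59), 7.10% (6.69 to 7.54) and 18.2% (17.0 to 19.6) of them. Promoters, taken as 2.5 kb to either side of a start, were overlapped by 18.3% of lost and 25.7% of kept WTLPS peaks, a difference of −7.36 percentage points (−8.19 to −6.54), and by 38.7% (37.1 to 40.4) of KOLPS-only peaks. Introns held 40.1% of lost and 33.5% of kept peaks, exons 8.25% and 7.77%, and the space outside genes 33.3% and 33.0%. The presence of CTCF went with a lower kept share in and out of promoters: at promoters 16.9% (16.0 to 17.9) with and 45.1% (43.7 to 46.4) without CTCF, elsewhere 9.21% (8.85 to 9.58) and 36.1% (35.4 to 36.7). At sites with H3K4me1 and no H3K4me3, the pattern of enhancers, 16.8% of 8951 peaks with CTCF and 38.6% of 18291 without were kept, and with neither methylation 4.66% (4.38 to 4.96) of 20873. On chromosome X 7.07% (5.47 to 9.09) of 778 peaks were kept, against 20.4% to 24.8% on the autosomes. Peaks of X and of the autosomes were not compared at equal strength or with the same marks.

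**Figure D4:**
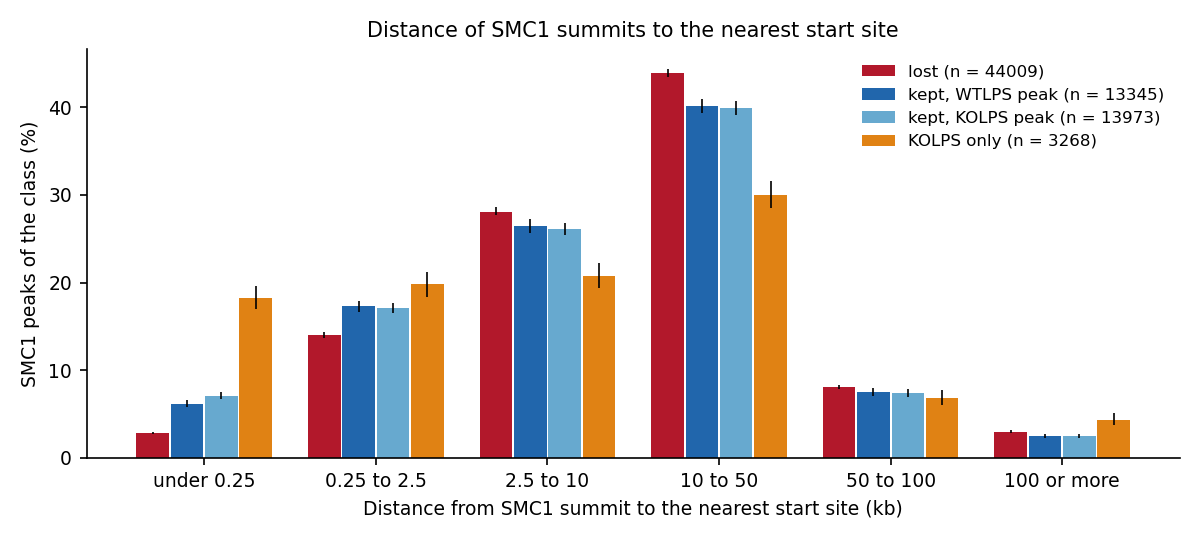
Share of SMC1 peaks in each class (%) by distance from the summit to the nearest annotated start site (kb), with 95% Wilson intervals. KOLPS-only peaks hold 18.2% within 0.25 kb of a start, against 2.84% of lost peaks.

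Motif letters within 50 bp of the summit, on both strands, followed the same division. The CTCF core, in capitals above, was in 23.3% (22.9 to 23.7) of lost and 6.32% (5.92 to 6.75) of kept WTLPS windows, against 0.485% of 26212599 windows of the same length tiling the genome. Among peaks with CTCF it was in 35.5% (34.9 to 36.0) of lost and 24.2% (22.8 to 25.7) of kept ones, so it lay within 50 bp of the SMC1 summit less often at kept CTCF sites. The rest of the peak was not searched, and kept peaks were wider. Among peaks without CTCF it was in 2.87% of lost and 0.389% of kept ones. The NF-κB motif was in 0.623% of lost and 2.48% of kept windows (genome 0.325%), GAGGAAGT, a PU.1 motif, in 1.94% and 4.68% (0.588%), and TGANTCA, an AP-1 motif, in 4.71% and 10.4% (2.96%). The gap for PU.1 and AP-1 was smaller among peaks without CTCF, where PU.1 letters were in 4.17% (3.88 to 4.49) of lost and 5.69% (5.25 to 6.16) of kept windows and AP-1 letters in 8.24% (7.83 to 8.67) and 12.2% (11.6 to 12.9). TTGCNNAA, a C/EBP motif, was in 8.13% and 7.81% of them, with overlapping intervals of 7.72 to 8.56 and 7.30 to 8.35. A match describes the letters of the window and does not show that the factor was bound.

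KOLPS-only peaks were weak, poor in CTCF and nearer to start sites than the other classes by their median. Most still lay outside promoters, which 38.7% of them overlapped. Their −log10 p had quartiles of 7.75 and 9.99 beside a list minimum of 7.001. CTCF peaks of KOLPS overlapped 7.19% (6.35 to 8.13) of them, H3K27ac 33.8% (32.2 to 35.4), p65 4.07% (3.44 to 4.80) and H3K4me3 33.2% (31.6 to 34.8). The H3K4me3 share lay above that of kept KOLPS peaks by 10.4 percentage points (8.64 to 12.2) and the H3K27ac share lay below it by a difference of −25.2 (−27.0 to −23.4). No peak of CTCF, H3K27ac, p65 or H3K4me3 was called in KOLPS at 50.2% (48.5 to 52.0). An SMC1 peak was already called in KO at 46.4% (44.7 to 48.1) and in WT at 31.5% (29.9 to 33.1), while 42.1% (40.5 to 43.8) had none in either. The CTCF core was in 10 of 3268 windows (0.306%), and the promoter letters printed above were more frequent than in kept KOLPS windows: ETS in 1.10% (0.797 to 1.52) against 0.308% (0.229 to 0.414), NRF1 in 1.01% (0.720 to 1.41) against 0.272% (0.198 to 0.373) and Sp1 in 2.17% (1.73 to 2.73) against 0.709% (0.582 to 0.862), with genome shares of 0.0593%, 0.0264% and 0.164%. Promoters were overlapped by 38.7% of KOLPS-only and 25.2% of kept KOLPS peaks, and the letters were not compared among promoter peaks alone. The strongest KOLPS-only peaks were unlike the rest. The first, in an intron of Pcca, the propionyl-CoA carboxylase gene, on chromosome 14 (122568945 to 122569118), had a fold of 66.6, and the others of the top 5 lay on chromosome Y, near Gm10718 on chromosome 9 and among the immunoglobulin heavy chain variable genes Ighv8-12 and Ighv1-55, at places with a peak in 11 to 16 of the 30 lists.

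A promoter was counted as kept where any SMC1 peak overlapped it in both conditions. SMC1 lay at the promoters of 5951 of 21938 protein-coding genes in WTLPS (27.1%) and of 3050 in KOLPS (13.9%). Of the 5951, 3583 had none in KOLPS, which is 60.2% (59.0 to 61.4), and of the 15987 without SMC1 in WTLPS 682 had it in KOLPS, which is 4.27%. The promoters that lost SMC1 had H3K4me3 at 79.1% in WTLPS and 76.8% in KOLPS and H3K27ac at 61.0% and 59.4%. CTCF lay at 75.9% (74.5 to 77.3) of them in WTLPS, and at 50.6% (48.6 to 52.6) of the 2368 kept promoters. The share lost was 17.4% (14.6 to 20.7) of 586 promoters with p65, 39.0% (36.8 to 41.3) of 1804 with H3K27ac and no CTCF, 58.1% of 2549 with H3K27ac and CTCF, and 87.4% (85.7 to 89.0) of 1598 without H3K27ac. The 682 KOLPS-only promoters were active in both conditions, with H3K4me3 at 95.6% in each.

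Genes of the LPS response mostly kept promoter SMC1. The signal starts at TLR4 with its coreceptors Cd14 and Ly96 and the adaptor Myd88, all of which kept it. Of 17 TLR pathway genes with SMC1 in WTLPS 6 lost it (35.3%), namely Tlr9, Tirap, Ticam2, Irak1, Traf3 and Trim25, and Traf6 and Map3k7, which relay the signal to the IKK kinases, had it in KOLPS only. Of 12 genes for NF-κB subunits and inhibitors 1 lost it, which was Rela, the gene of p65 itself. Of 19 inflammatory cytokine genes 4 lost it (21.1%), namely Il10, Csf2, Csf3 and Lta. Of 20 chemokine and receptor genes 4 did, among them Ccl7 and Ccr7, the receptor that leads dendritic cells to lymph nodes. Antigen presentation and costimulation genes lost it at 1 of 17 (H2-Eb1), GM-CSF and STAT5 pathway genes at 1 of 11 (Socs2), AP-1 and immediate early genes at 2 of 12 (Egr1 and Egr3), myeloid transcription factors at 3 of 11, among them Zbtb46, and interferon-stimulated genes at 4 of 13. Each of these lists lay below the 60.2% of all promoters. The LPS-induced enzymes lay close to it, where 4 of 6 (66.7%) lost it, namely Ptgs2, Nos2, Ch25h and Cybb, and Acod1 and Sod2 kept it. Above it lay the genes of cohesin itself, where 5 of 5 did, namely Smc3, Stag1, Stag2, Nipbl and Pds5a. Of the imprinted and Hoxa genes 1 had promoter SMC1 in WTLPS, Hoxa7, and lost it. These are small counts, given as a description. The lists were not matched to other promoters for H3K27ac or p65. Of all SMC1 promoters with H3K27ac in WTLPS 50.2% lost SMC1, and of those with p65 17.4%.

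Ribosomal protein genes, chosen by their symbols, stood out on the KOLPS-only side. Without the Rps6k kinase genes that share the prefix, 23 of 42 promoters with SMC1 in WTLPS lost it (54.8%), beside 60.2% of all genes. Of the 46 others, 11 had SMC1 in KOLPS only (23.9%, 13.9 to 37.9), among them Rpl26, Rps3 and Rps14, beside 4.27% of all promoters and 8.73% (8.11 to 9.39) of the 7467 promoters with H3K4me3 and no SMC1 in WTLPS. Read pairs from ribosomal protein pseudogenes can be shared with these genes, and how the reads were placed was not tested.

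Around the named genes, most peaks with p65 were kept. Peak strength was not held equal in the counts that follow. Within a strength group, over all WTLPS peaks, p65 sites were kept at shares close to those of H3K27ac sites without CTCF. That set includes many of the p65 sites. The 32 genes followed held 725 WTLPS SMC1 peaks within 100 kb of a start, of which 57.7% were lost, beside 76.7% of all WTLPS peaks. With p65, 131 of 152 were kept (86.2%, 79.8 to 90.8), beside 74.2% over all. With CTCF alone 18 of 145 were kept (12.4%, 8.00 to 18.8), beside 6.12%, and with H3K27ac alone 107 of 260 (41.2%, 35.3 to 47.2), beside 41.4%. Near Il6, the cytokine gene on chromosome 5 with its start at 30013144 (GRCm38), 11 of 31 peaks were kept. All 7 with p65 were among them, the strongest at −64.7 kb from the start with a fold of 26.5, and its KOLPS partner had 15.8, while none of the 6 with CTCF and no p65 was kept. In KOLPS p65 was called at 2 of these 7 places. Il12b, the IL-12 p40 gene, kept 6 of 6 peaks with p65 and 4 of 19 without. Its strongest peak, 53.5 kb downstream of the start at a CTCF site, had a fold of 30.9 in WTLPS, the highest of 25 there, and 3.82 in KOLPS, the joint lowest of 11. Tnf kept 5 of 5 peaks with p65, Irf4, a factor of dendritic cell development, 6 of 6, and Tnfaip3, which restrains NF-κB, 12 of 13.

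At the other genes described most peaks were lost. This also held near Il6 (20 of 31), Tnf (16 of 26) and Il12b (15 of 25). Near Tnfaip3 18 of 41 were lost and near Irf4 12 of 25. Over all WTLPS peaks 76.7% were lost. Near Ptgs2, the cyclooxygenase-2 gene, 13 of 15 peaks were lost, including 3 of 4 with p65 and both at the promoter, with folds of 6.50 and 4.58. Near Nos2, the inducible nitric oxide synthase gene, 15 of 19 were lost; 16 of the 19 lay at CTCF sites and none overlapped p65. Acod1, which makes itaconate, kept 12 of 26 peaks and had SMC1 at its promoter in both conditions, at a fold of 17.5 in WTLPS and 3.82 in KOLPS. Near Cd40, the costimulatory receptor gene, 12 of 13 were lost and the promoter peak, with p65, was kept at a fold of 8.72 in WTLPS and 4.19 in KOLPS. The Ccr7 promoter had SMC1 in WTLPS alone, with a fold of 5.17, and 11 of 19 peaks around it were lost. So did that of Il10, with a fold of 4.43 and 13 of 21 lost. At Relb, the NF-κB subunit gene, 1 of 14 peaks was kept, which lay at the promoter. The cohesin genes Smc1a and Rad21 had 2 WTLPS peaks each within 100 kb and kept none. Fold is relative to the background of each list and its size is not compared between the lists.

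**Figure D5:**
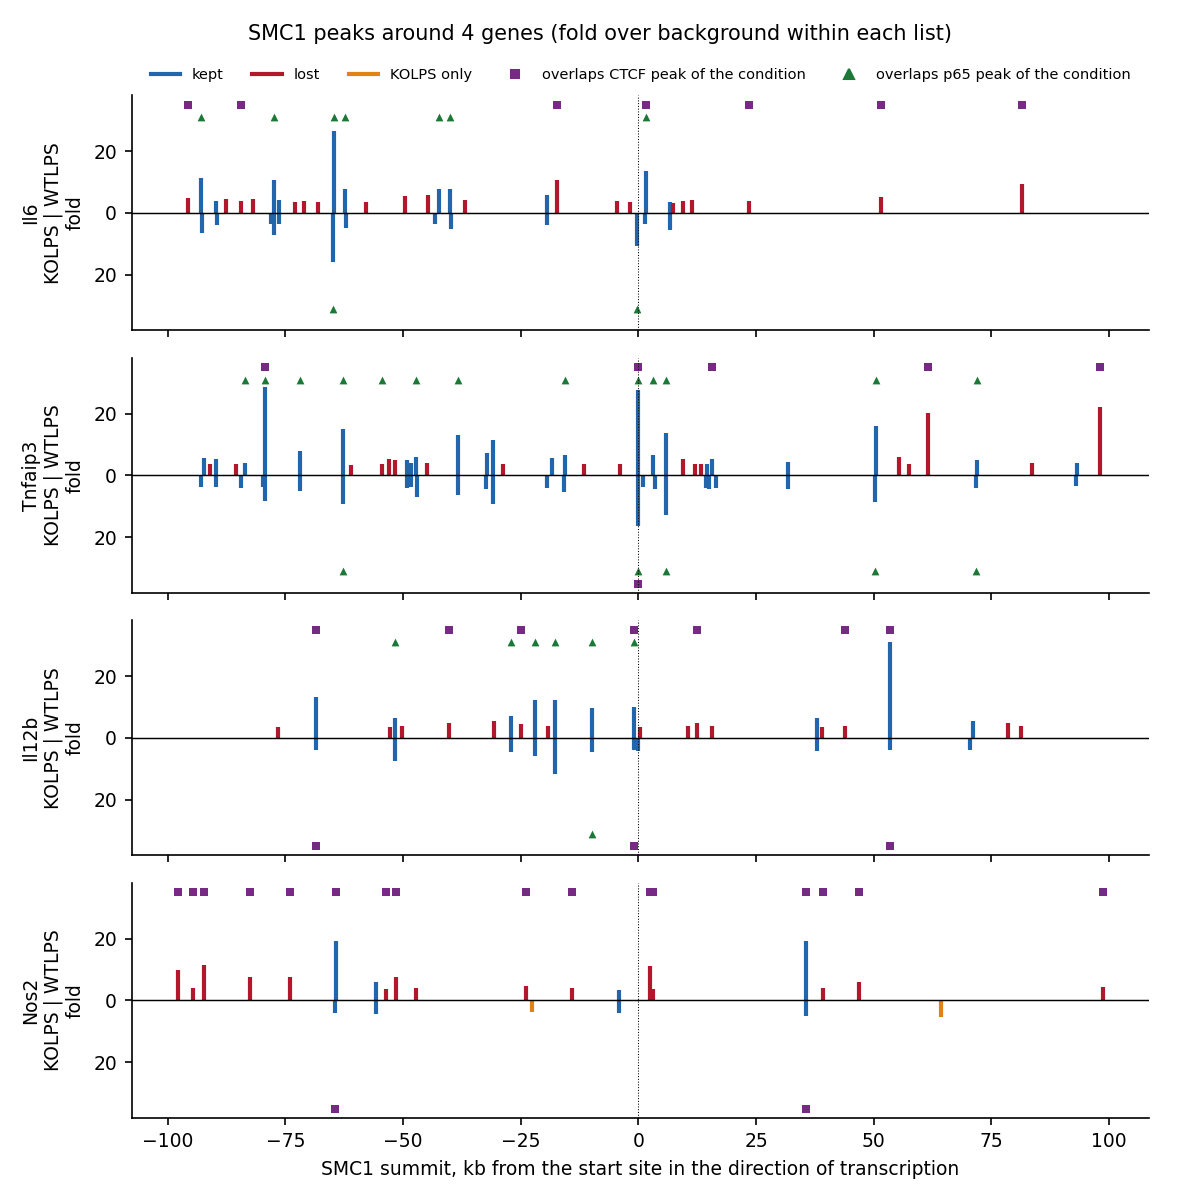
SMC1 peaks within 100 kb of Il6, Tnfaip3, Il12b and Nos2, with the summit's distance from the start (kb, in the direction of transcription) against fold over background, WTLPS upward and KOLPS downward. Blue is kept, red lost and orange KOLPS only, squares mark an overlapping CTCF peak and triangles a p65 peak of the same condition. The 7 Il6 peaks with p65 in WTLPS are kept, and Nos2 has no p65 triangle.

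Genes with the most peaks were mostly long. Within 10 kb of Etv6, a 234 kb ETS factor gene on chromosome 6, lay 33 lost and 15 kept peaks, within 10 kb of Lpp (599 kb) 37 lost and 23 kept, and within 10 kb of Rasgef1b (512 kb) 21 lost and 19 kept. Fgfr2, annotated over 2961 kb, with 55 lost and 16 kept, and Pde4d (1504 kb), with 42 and 13, came next after Gm20388 among the lost. Akap13 (19 and 17) and Asap1 (25 and 17) followed Lpp and Rasgef1b among the kept. Gm20388, annotated over 4435 kb, held the most of either. The most KOLPS-only peaks lay within 10 kb of Skint5 (522 kb), with 13, and 6 lay at Olfr209 (2.83 kb). No WTLPS peak was called at either. The 5 strongest kept peaks in WTLPS included 3 near Gm29277 on chromosome Y, with folds from 58.1 to 86.0 and a peak in 17 or 18 of the 30 lists. Another lay at a CTCF site in an intron upstream of Ramp3, a receptor-modifying protein, on chromosome 11 (6654637 to 6655865) with a fold of 53.1. The last, at Gm21738 on chromosome 14, had a fold of only 2.91 and a peak in 19 of the 30 lists.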

How the data were processed

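ChIP-seq libraries were made by tagmentation from BMDCs, 1 SMC1 list per condition. The authors aligned read pairs to mm10, removed duplicates and called peaks against input; the submitters' processing notes name BWA 0.7.12, Picard 1.77 and MACS2 2.1.2, and the study's methods name other versions. The study's methods describe peak calls per biological replicate, and its reporting summary says that replicates were found reproducible, merged and processed again together. Which of these the deposited lists hold is not stated for each list, so each was taken as 1 list that may pool replicates. The deposited values are the ratio of pileup to local background (fold), and p-value and q-value on a −log10 scale. Every list is of narrow peaks except H3K4me1 and H3K27me3, and the fold and −log10 values were used within a list.

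Coordinates are 1-based in GRCm38, with GENCODE vM21 genes (55413, of which 21938 protein-coding) and the RefSeq GRCm38 genome. Peaks lay within the lengths of the 21 chromosomes. Overlap needed 1 bp. Starts were those of the longest transcript. A peak's location was the first that fitted of promoter, exon, intron and outside genes. The number of fragments behind a peak was recovered from fold and −log10 p (below 25, tolerance 0.002, matching at least 99.96% in the SMC1 lists), and WTLPS peaks were thinned binomially to the KOLPS coverage. Shares have 95% Wilson and differences Newcombe intervals, computed with scipy 1.17.1. No test was run, having 1 list per condition. The scripts were tested on simulated data. Named are 32 genes, gene lists described by counts, and per class the 5 strongest peaks, leaving out places with a peak in 20 or more of 30 lists, and the 5 genes with the most peaks. Some members of the lists are not reported here by name. The members and lists were chosen with earlier results of these data known. Alternatives were a stricter threshold, partners covering at least 50%, partners within 500 bp, thinning, summit overlap, recurring places left out, autosomes and other promoter definitions.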

Additional observations from a re-analysis of the deposited data

How the results depend on the processing

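The lost minus kept differences kept their sign under every alternative, and the other main values are shares with no direction to reverse. Of 42 alternatives to the 7 main values, 13 stayed within the main interval and 29 moved out of it. With −log10 p of at least 10 in both SMC1 lists, the share lost was 82.1%, the KOLPS-only share 14.6%, the lost minus kept differences 46.1 (CTCF), −48.6 (H3K27ac), −32.4 (p65) and −5.00 (promoter) points, and the share of promoter genes lost 73.6%. With a partner that covers at least 50% of the peak, these were 86.1%, 20.6%, 47.6, −41.5, −24.0 and −5.60. Thinned to the KOLPS coverage, the share lost was 74.3% and the differences were 42.8 (CTCF), −47.2 (H3K27ac) and −24.4 (p65). Without places with a peak in 20 or more lists, the values were 77.2%, 20.6%, 39.1 (CTCF), −22.3 (p65) and −6.51 (promoter). Counting partners within 500 bp gave 75.5% lost and 17.4% KOLPS only. With the SMC1 summit inside the other peak, the differences were 39.7 (CTCF), −30.8 (H3K27ac) and −20.9 (p65). Start sites of all transcripts gave −6.42 for promoters, and promoters of 1 kb to either side gave 58.8% of promoter genes lost. The causes were not tested. No paired analysis was possible because each condition has 1 list. The limits are this single list per condition, a KOLPS library of 0.780 times the WTLPS coverage, and a call that a weak peak can miss at that depth.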
